A study of Caenorhabditis elegans with 2 samples.

Results

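Moulting and apical matrix genes of Caenorhabditis elegans were examined for RNA polymerase II in L3 larvae. They are 30 protein-coding genes, given as a list of names, and all 30 were found among the 19973 protein-coding genes of the Ensembl annotation of WBcel235, the same assembly as ce11. The assay was chromatin immunoprecipitation followed by sequencing (ChIP-seq) with an antibody to AMA-1, its large catalytic subunit. The only group was whole L3 larvae of both sexes of the wild isolate strain N2, untreated as far as the labels say, with 2 biological replicates. Fragments ran from 150 to 350 bp, and the control libraries that the labels point to were not analysed here. There was no second condition, the time within L3 is not given, and whole animals mix the epidermis, in which many of these genes are known to act, with all other tissues. Strong occupancy in few cells and weak occupancy in many cannot be told apart.

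A nematode covers itself with a cuticle of collagens and other secreted proteins, which it replaces at the end of every larval stage. The epidermis lays down a transient apical matrix and a new cuticle beneath the old one, enzymes loosen the old one, and the animal sheds it. Many genes of this programme are known to be transcribed in waves, once per larval stage, so a population of L3 larvae can catch them high or low. The 30 genes hold proteases and protease inhibitors, enzymes of cuticle cross-linking, proteins of the apical matrix, secreted proteins related to Hedgehog, and a set for endocytosis and signalling.

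Each gene was scored from 500 bp upstream of its 5′ end to 500 bp past its 3′ end. Summits up to 500 bp from the 5′ end, on either side, counted as promoter, those equally close to the 3′ end as 3′ end, and those deeper inside the gene as body. A summit near both ends went to the nearer one. The optimal list is the 3052 peaks that the authors kept by a test of repeatability. The pooled list and the list of each replicate hold 30000 regions each, called permissively. Each region carries a signal computed by the authors, whose scale the sources used here do not state, so values are set side by side only within a list. The lowest optimal signal is 57.92, and the strongest pooled region outside the optimal list has 57.91. The optimal peaks are thus the strongest pooled regions, and a single one need not have a region in each replicate. The depth of the libraries is unknown, and a gene without a region is one at which no region was called.

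The letters at the summits show where in the genes the polymerase was called. Shown are the 120 bases around the optimal summits that lay nearer to an end of one of the 30 genes than to an end of any other protein-coding gene, or in a body, moved where needed to keep clear of annotated untranslated bases. They were read from the RefSeq genome of WBcel235, on the strand of the gene named. Capitals mark the summit with up to 10 bases on each side.
noah-2, first exon, chrIV:14091269-14091388, + strand: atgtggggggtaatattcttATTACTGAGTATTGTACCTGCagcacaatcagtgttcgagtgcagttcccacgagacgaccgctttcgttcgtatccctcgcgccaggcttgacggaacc
noah-2, body, chrIV:14093889-14094008, + strand: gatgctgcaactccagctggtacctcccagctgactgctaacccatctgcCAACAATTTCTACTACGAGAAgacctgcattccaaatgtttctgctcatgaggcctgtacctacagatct
mlt-11, body, chrV:20668343-20668462, + strand: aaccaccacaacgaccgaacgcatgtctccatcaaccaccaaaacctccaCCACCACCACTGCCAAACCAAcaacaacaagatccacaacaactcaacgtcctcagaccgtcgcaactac
wrt-1, first exon, chrII:7531183-7531302, + strand: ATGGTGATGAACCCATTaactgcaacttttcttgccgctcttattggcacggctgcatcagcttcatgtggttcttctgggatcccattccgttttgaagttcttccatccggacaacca
wrt-10, last part, chrII:7533525-7533644, - strand: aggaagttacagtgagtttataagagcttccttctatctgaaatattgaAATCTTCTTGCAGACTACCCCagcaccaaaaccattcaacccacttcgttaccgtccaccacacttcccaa
wrt-2, past its 3′ end, chrX:3092015-3092134, - strand: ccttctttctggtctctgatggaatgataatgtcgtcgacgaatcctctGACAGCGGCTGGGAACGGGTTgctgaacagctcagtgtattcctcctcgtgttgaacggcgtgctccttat

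The noah-2 and wrt-1 sequences begin with the start codon, and their summits lay 30 and 6 bases past its first base. The wrt-10 summit lay in an intron just before a splice acceptor. The wrt-2 window reads the opposite strand of coding sequence of pccb-1, the convergent neighbour of wrt-2. Upstream of the annotated 5′ ends of the 2 genes with a promoter summit the last 60 bases are given next, with the acceptor motif TTNCAG in capitals where it was found within them.
noah-2, upstream, chrIV:14091194-14091253, + strand: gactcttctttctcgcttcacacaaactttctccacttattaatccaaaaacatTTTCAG
wrt-1, upstream, chrII:7530936-7530995, + strand: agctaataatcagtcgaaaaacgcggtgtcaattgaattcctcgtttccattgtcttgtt

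The acceptor motif ended directly at the annotated 5′ end of noah-2, while the 60 bases upstream of wrt-1 held none. Worm transcripts are often trans-spliced: a spliced leader replaces the first stretch of the RNA at such an acceptor. For such a gene the annotated 5′ end lies downstream of the place where the polymerase starts. TTNCAG on the gene strand stood within the last 10 bases before the 5′ end in 5 of the 30 genes (16.7%), namely acn-1, fbn-1, lrp-1, noah-2 and phg-1, and in 20.8% of all protein-coding genes. The motif AGGTCA, which nuclear hormone receptors are known to bind, was present on either strand within 500 bases upstream in 7 of 30 genes (23.3%) and in 12.8% of all. TATAAA, searched in the same way, was present in 17 of 30 (56.7%) and in 54.04% of all. These are counts of letters only.

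In the optimal list the polymerase was found at 7 of the 30 genes, and mostly at their 3′ ends. These 7 (23.3%, 95% interval 9.93 to 42.3%) were wrt-1, wrt-2, wrt-5, wrt-10, noah-2, bli-5 and mlt-11, against 10.9% of all protein-coding genes. At the promoter it was 2 genes, noah-2 and wrt-1 (6.67%, against 5.96% of all genes), so the share at promoters was near the background. In the body it was noah-2 and mlt-11 (6.67%, against 2.6%), and at the 3′ end bli-5, wrt-1, wrt-2, wrt-5 and wrt-10 (16.7%, interval 5.64 to 34.7%, against 5.63%). Longer genes have more body, so optimal summits were also counted per 10 kb of zone, each for every gene whose window held it. The 30 genes had 0.673 at promoters, 0.171 in bodies and 2.02 at 3′ ends, and all protein-coding genes had 0.657, 0.211 and 0.661. Per 10 kb, the bodies of the 30 genes were thus not above those of all genes. With 1 group there was no test, and the intervals are exact Clopper-Pearson ones that cover counting error only. By the 3052 strongest regions of replicate 1 alone the counts were 2 genes at promoters (against 5.38% of all genes), 1 in the body (against 2.72%) and 6 at 3′ ends (against 5.05%). By those of replicate 2 alone they were 0 at promoters (against 5.98%), 2 in bodies (against 2.93%) and 3 at 3′ ends (against 6.82%). Of the 5 genes at 3′ ends, 2 were left when only summits nearest to the gene's own end counted (against 3.44% of all genes). With a window of 250 bp it was also 2 (against 3.73%).

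**Figure D1:**
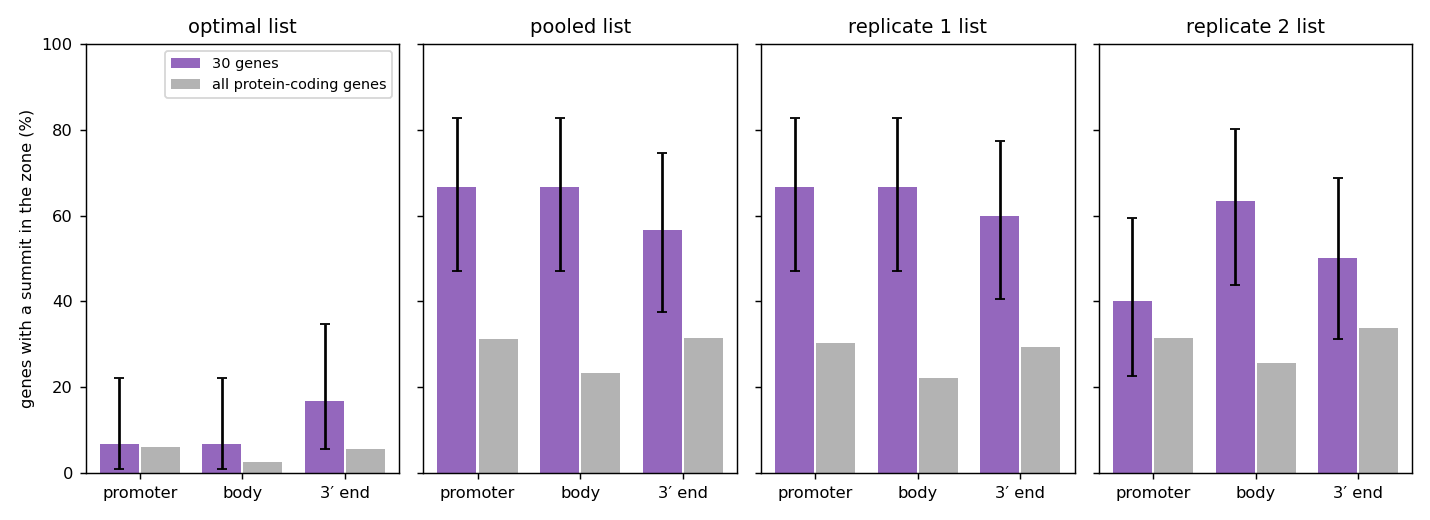
Percentage of genes with a summit in each zone (y axis, %), for the 30 genes (purple, with exact 95% intervals) and for all protein-coding genes (grey), in the optimal, pooled, replicate 1 and replicate 2 lists. In the optimal list the purple promoter bar (6.67%) is close to the grey one (5.96%), while in the pooled list the purple bars stand at 66.7%, 66.7% and 56.7%.

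The 9 distinct optimal summits at these genes were weak by the standard of the list. Their signals ran from 58.9 to 130.3, in a list that runs from 57.9 to 1168 with a median of 79.2, and 7 of the 9 lay below that median. In 6 of the 9 the summit lay in coding sequence of one of the 30 genes. A replicate 1 region was found within 200 bp of all 9, and a replicate 2 region within 200 bp of 7.

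Hedgehog-related genes, secreted proteins of the warthog (wrt), groundhog (grd) and quahog (qua) families, held the strongest summits. Of these 11 genes, 4 had an optimal summit (against 10.9% of all protein-coding genes), with 1 summit shared by wrt-1 and wrt-10. A pooled region was found at 9 (against 46.4% of all), and wrt-4 and wrt-8 had none in the pooled list. The strongest pooled region over all 30 genes lay at wrt-2 (WBGene00006948, chromosome X, 3092395 to 3094349, - strand), with its summit at 3092602 in the last coding exon, 207 bp before the 3′ end. Its signal was 130.3 in the pooled list (rank 476), and the matching region had 89.7 in replicate 1 (rank 588) and 60.6 in replicate 2 (rank 224), so it ranked high in each. The same summit lay nearer to another gene, 165 bp past the 3′ end of pccb-1, and signal of the convergent genes cannot be told apart there. The other wrt-2 summit, at 3092075, was 320 bp past its 3′ end and inside pccb-1, with a signal of 62.2 in the pooled list, 47.3 in replicate 1 and 18.5 in replicate 2. No pooled region fell at the promoter of wrt-2.

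At wrt-5 (chromosome IV, 4050006 to 4051639, - strand) the summit at 4049693 lay 313 bp past the 3′ end and upstream of the next gene, at -245 bp from the 5′ end of pcn-1, which encodes the sliding clamp of DNA replication. The signal was 87.0 in the pooled list, 60.2 in replicate 1 (rank 1425) and 27.2 in replicate 2 (rank 1644). The promoter region of wrt-5 had a signal of 15.1 in the pooled list, near the lowest value of that list, which is 14.3, and no match in replicate 1. The wrt-5 summit was thus nearer to the 5′ end of pcn-1 than to wrt-5.

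The genes wrt-1 and wrt-10 are neighbours that converge on chromosome II, wrt-1 at 7530996 to 7533246 on the + strand and wrt-10 at 7533262 to 7534563 on the - strand. One optimal summit at 7533585 counted for both, 339 bp past the 3′ end of wrt-1 and inside wrt-10, 323 bp before its 3′ end. It had a signal of 66.3 in the pooled list and 52.8 in replicate 1 (rank 1901), and no region within 200 bp in replicate 2. The promoter summit of wrt-1, at 7531189 and 193 bp inside its 5′ end, had 64.0 in the pooled list and 61.4 in replicate 1 (rank 1362), and again no region within 200 bp in replicate 2. That summit also lay 258 bp past the 3′ end of ZK1290.5. The strongest region of replicate 2 anywhere in either gene's window had a signal of 16.5 (rank 5227), at a summit inside wrt-1 near its 3′ end, over 200 bp from both optimal ones.

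Among the other Hedgehog-related genes, grd-5 reached 46.5 in the pooled list at a summit 246 bp past its 3′ end, which was nearer to the end of idpc-2. The strongest region of grd-5 had 36.4 in replicate 1 and 13.6 in replicate 2. The gene qua-1 reached 40.3 in the pooled list at a summit 405 bp upstream of its 5′ end, with no other protein-coding end within 500 bp; that region had rank 5332 in replicate 1 and no match in replicate 2. A further 4 pooled regions lay along the body of qua-1. The adjacent genes grd-3 and grd-10 on chromosome IV shared a weak region between them, 113 bp past the 3′ end of grd-3 and 489 bp upstream of grd-10, with a signal of 19.4. The strongest pooled region of grd-3 lay at its promoter, 105 bp inside its 5′ end, with a signal of 34.3. Its matches had 22.9 in replicate 1 (rank 9735) and 13.6 in replicate 2 (rank 7728). That summit also lay 253 bp past the 3′ end of grd-13. The pooled signal of wrt-6 was 19.2, in a single body region. In wrt-8 no region was called in any of the lists, and it was the only one of the 30 genes of which this was true.

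Among the genes of apical matrix proteins, noah-1, noah-2 and sym-1 had pooled regions at the promoter, in the body and at the 3′ end. The zona pellucida domain proteins NOAH-1 and NOAH-2, the fibrillin-like FBN-1, the zona pellucida protein LET-653 and the leucine-rich repeat protein SYM-1 are known components of embryonic and larval apical matrices. All 5 of these genes had pooled regions (against 46.4% of all protein-coding genes), 39 in all, with a strongest signal per gene of 31.8 to 71.0. At noah-2 (WBGene00009926, chromosome IV, 14091254 to 14096626, + strand) the pooled list held 11 regions, and 2 of them were optimal. The summit at 14091299, 45 bp inside the 5′ end, had a signal of 62.5 in the pooled list, 52.0 in replicate 1 (rank 1969) and 12.2 in replicate 2 (rank 9406). The summit at 14093949, in coding sequence 2695 bp from the 5′ end, had 71.0 in the pooled list, 42.7 in replicate 1 (rank 3040) and 16.5 in replicate 2 (rank 5230). Both noah-2 summits were therefore ranked higher by replicate 1, and no other protein-coding gene had an end within 500 bp of either. The piRNA genes 21ur-4611 and 21ur-4846 lay within that distance of the summit at 14091299.

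Its relative noah-1 (chromosome I, 5874416 to 5878958, - strand) missed the optimal list by a small margin. It held 8 pooled regions with signals from 27.6 to 54.2, against the lowest optimal signal of 57.9. The strongest lay 536 bp inside the gene, with ranks of 4490 in replicate 1 and 4402 in replicate 2. Each replicate alone placed noah-1 among its 3052 strongest regions, but at different positions. Replicate 1 did so past the 3′ end, at a signal of 44.8 (rank 2734), where the gene cdc-7 also ends. In replicate 2 the best of its regions was in the body, at 24.6 (rank 2117). The 7 pooled regions of noah-1 inside the gene all lay in coding sequence.

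The gene sym-1 (chromosome X) had 6 pooled regions, the strongest at 54.9 in its body, with no match in replicate 2, and another at 49.7, 134 bp past its 3′ end. The replicates had their strongest sym-1 regions at different places, at 35.3 in the body in replicate 1 (rank 4497) and at 15.7 at the 3′ end in replicate 2 (rank 5780). The long gene fbn-1, 15693 bp, had 12 pooled regions, all in its body, with a strongest signal of 34.5. By replicate the window of fbn-1 held 18 regions in replicate 1 and 5 in replicate 2. The gene let-653 had 2 pooled regions, of which the stronger, at 31.8, lay 261 bp upstream of its 5′ end.

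**Figure D2:**
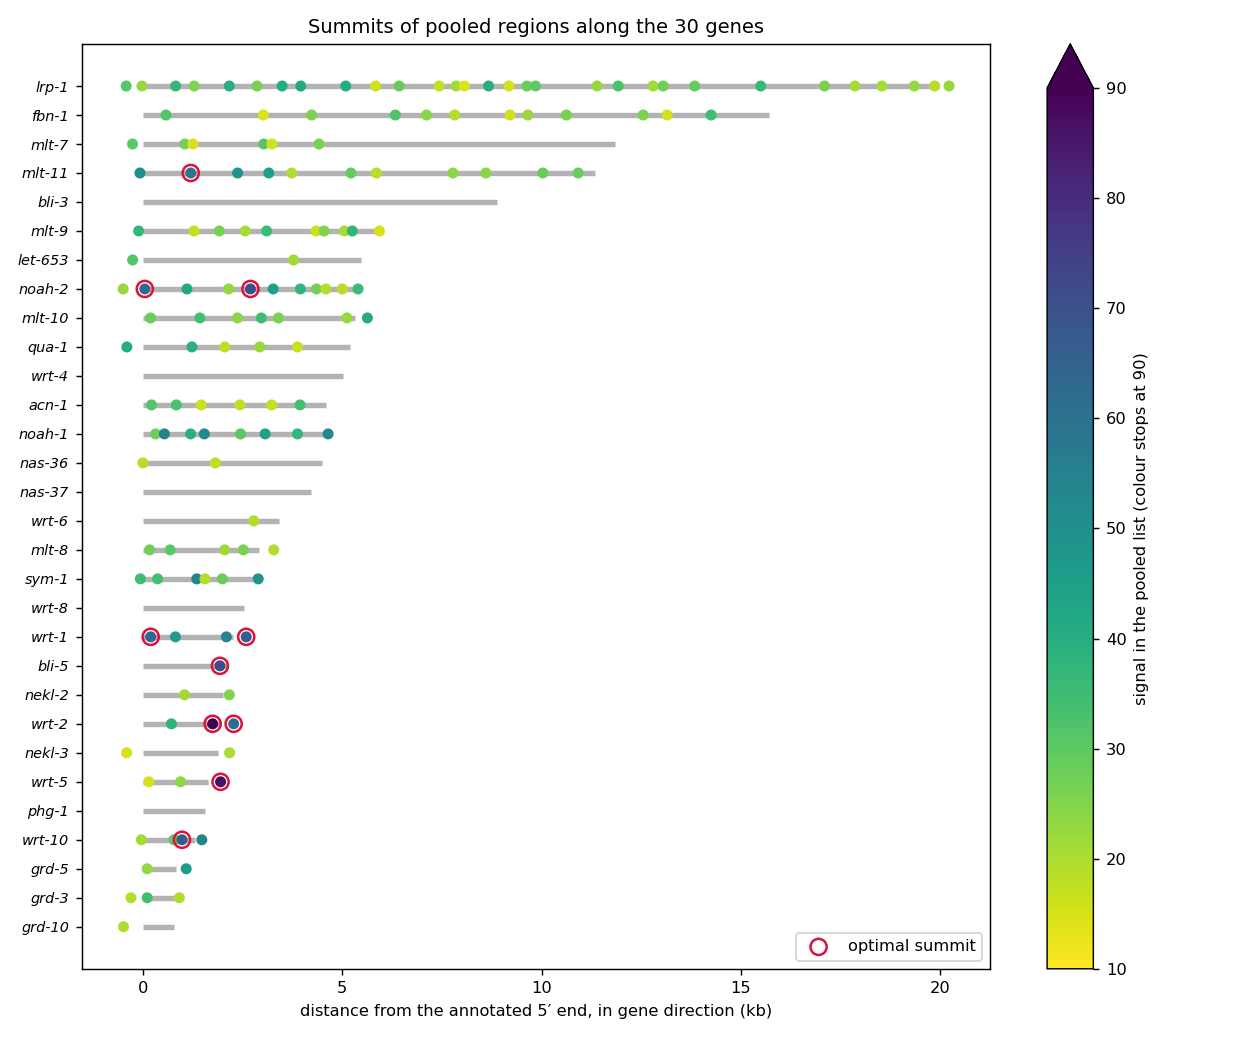
Positions of all pooled region summits (dots, coloured by their signal in the pooled list) along the 30 genes (grey bars, sorted by length), as distance from the annotated 5′ end in kb; red rings are optimal summits. Dots run along the whole length of lrp-1, noah-1, noah-2, mlt-9 and mlt-11, while bli-3, nas-37, phg-1, wrt-4 and wrt-8 have none.

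Among the proteases and protease inhibitors, the optimal summits lay at the inhibitor genes. The astacin metalloproteases NAS-36 and NAS-37 are known to act in shedding the old cuticle, and BLI-5 and MLT-11 hold Kunitz domains, which are found in inhibitors of serine proteases. At bli-5 (chromosome III, 13427640 to 13429768, - strand) the only pooled region was the optimal summit at 13427839, in coding sequence 199 bp before the 3′ end, with a signal of 71.3 in the pooled list. The matching regions had 43.4 in replicate 1 (rank 2923) and 24.99 in replicate 2 (rank 2043), so it was called at like ranks. It lay 118 bp past the 3′ end of the convergent gene cope-1, which is nearer. At mlt-11 (WBGene00012186, chromosome V, 20667205 to 20678537, + strand) 11 pooled regions ran from 77 bp upstream of the 5′ end to 414 bp before the 3′ end. Its optimal summit at 20668403, 1198 bp inside the gene, had a signal of 58.9 in the pooled list, 37.3 in replicate 1 (rank 4059) and 23.3 in replicate 2 (rank 2405). The mlt-11 promoter region followed at 51.2, with 39.96 in replicate 1 and no match in replicate 2. By contrast nas-36 had 2 pooled regions, up to 18.8, and nas-37 none. In the replicate lists the strongest region of nas-37 had 9.93 in replicate 1 (rank 27992) and 10.3 in replicate 2 (rank 12309). Those summits were at different places, 3338 bp from the 5′ end in replicate 1 and 2814 bp in replicate 2.

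The 2 genes for enzymes of cross-linking differed from each other. BLI-3, a dual oxidase, and MLT-7, a haem peroxidase, are known to act in cross-linking the cuticle. The gene bli-3 (8888 bp) had no region in the pooled list or in replicate 1 and 1 region in replicate 2, with a signal of 5.70 (rank 26984). The gene mlt-7 had 6 pooled regions, and the strongest, at 31.2, had a match of 12.5 in replicate 1 (rank 22074) and of 16.7 in replicate 2 (rank 5083). At other places in mlt-7 the regions reached 26.01 in replicate 1 and 18.6 in replicate 2.

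Of the 5 remaining moulting genes, 4 had pooled regions (against 46.4% of all protein-coding genes). The strongest pooled regions had signals of 40.9 at mlt-10, 37.8 at mlt-9, 34.03 at acn-1, which encodes a protein like angiotensin-converting enzyme, and 30.1 at mlt-8, and phg-1 had none in the pooled list. At mlt-10 the strongest summit lay 302 bp past the 3′ end and 480 bp past the 5′ end of the next gene, lips-7, and the gene had 7 pooled regions; the match of the strongest had 23.8 in replicate 1 (rank 9172) and 8.98 in replicate 2 (rank 15277). At mlt-9 there were 10 pooled regions, with 12 in replicate 1 and 4 in replicate 2.

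Of the genes of endocytosis and signalling, lrp-1, which encodes a megalin-like receptor for endocytosis in the epidermis, had the most pooled regions of the 30 genes and is also the longest of them. Over its 19968 bp (chromosome I, 7614176 to 7634143, + strand) the pooled list held 30 regions, 26 of them in the body, at a median spacing of 630 bp between summits. Per kb of its scored window, which includes 500 bp beyond each end, lrp-1 had 1.43 pooled regions. The values were 1.74 at wrt-10, 1.73 at noah-2, 1.67 at grd-3, 1.60 at sym-1 and 1.44 at noah-1. None of the 30 lrp-1 regions was optimal, and their signals ran from 14.6 to 41.5. Replicate 1 alone gave 30 regions and replicate 2 alone 22. The kinase genes nekl-2 and nekl-3, which are known to regulate endocytosis during moulting, had 2 pooled regions each, up to 25.2 and 20.5.

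In the pooled list as a whole the polymerase was called at most of these genes, in their bodies as often as at their promoters. A pooled region lay in the window of 25 of the 30 genes (83.3%, interval 65.3 to 94.4%), against 46.4% of all protein-coding genes. It was 20 genes at the promoter (66.7%, against 31.3%), 20 in the body (66.7%, against 23.3%) and 17 at the 3′ end (56.7%, against 31.6%). The genes were long, with a median of 3818.5 bp against 2027 bp for all protein-coding genes, so a window could catch more regions. Counted per 10 kb, the 30 genes had 8.07 summits at promoters, 8.44 in bodies and 8.07 at 3′ ends, and all genes, silent ones included, had 4.23, 3.10 and 4.41. Without lrp-1 the density in the bodies was 7.43 per 10 kb. In 12 of the 30 genes there were 5 or more pooled regions, against 9.53% of all genes. A typical region is 320 bp wide, so several regions in a gene can be parts of one occupied stretch.

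**Figure D3:**
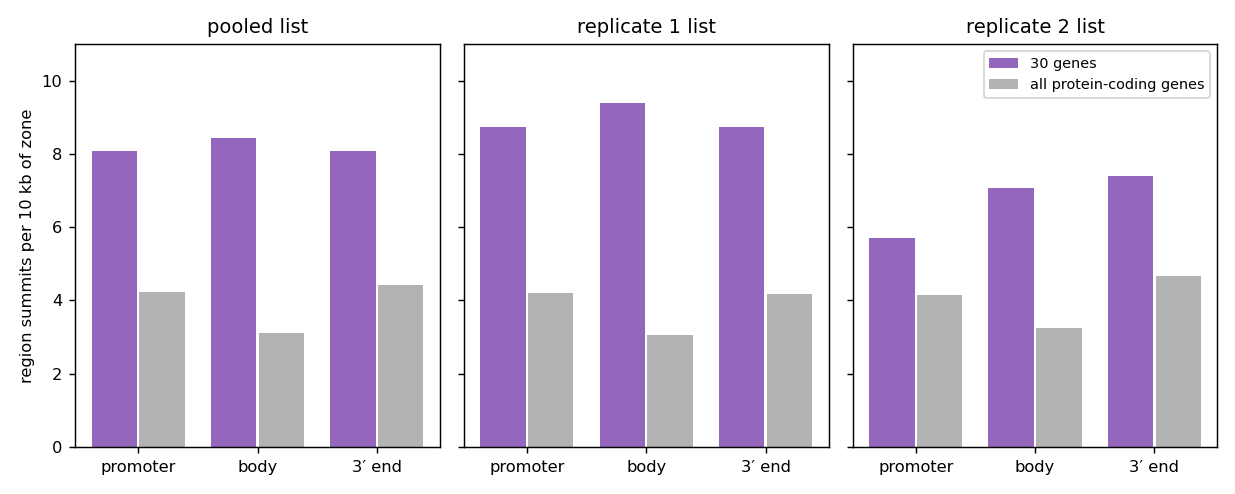
Region summits per 10 kb of promoter, body and 3′ end (y axis), for the 30 genes (purple) and all protein-coding genes (grey), in the pooled list and in the list of each replicate. The purple body bars stand at 8.44, 9.38 and 7.08 in the pooled, replicate 1 and replicate 2 lists, and the grey ones at 3.10, 3.06 and 3.25.

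Body summits lay in exons more often than the exons' share of the bases, at these genes and at all genes. Of the 99 body summits in the pooled list, 72 lay in an exon (72.7%, interval 62.9 to 81.2%), while 56.8% of the body bases were exonic. Over all protein-coding genes 47.1% of body summits were exonic, with 36.6% of the bases. Without lrp-1 it was 50 of 73 (68.5%). The GC content of the 121 bases around the pooled summits was 42.9% ± 6.71 (SD, n = 144 summits) at the 30 genes and 40.7% ± 7.41 at all protein-coding genes (n = 25220), and the whole genes averaged 38.3% and 37.1%. The part of GC content in the calls was not tested. Soft-masked repeats made up most of that window at 4.86% of the summits of the 30 genes and at 13.3% of those of all genes.

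Strength and place of the strongest region per gene were compared next. The median over the 30 genes of the strongest pooled signal was 34.4, with the 5 genes without a region at 0, and the median over all protein-coding genes was 0. Among genes with a region it was 40.3 and 34.8. As a rank among all protein-coding genes the median of the 30 genes was at the 76.5th percentile in the pooled list, at the 81.7th in replicate 1 and at the 73.8th in replicate 2. Above the 90th percentile of the pooled list were 6 genes, wrt-2, wrt-5, bli-5, noah-2, wrt-1 and wrt-10. The strongest pooled region lay in the body of 11 genes, at the 3′ end of 9 and at the promoter of 5 of the 25 with a region, and over all genes with a region the strongest was in the body in 21.9%, at the 3′ end in 37.8% and at the promoter in 40.3%.

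**Figure D4:**
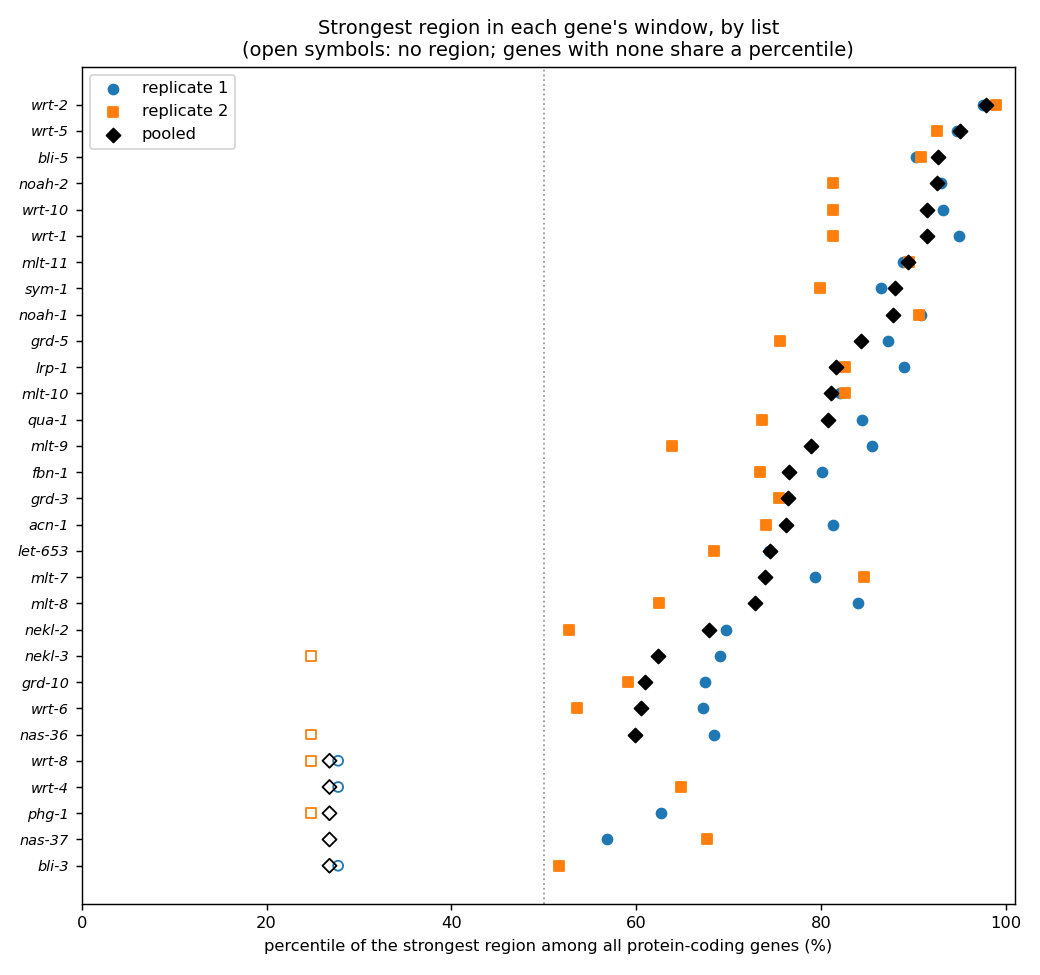
Percentile of the strongest region in each gene's window among all protein-coding genes (x axis, %), in the pooled list (black), replicate 1 (blue) and replicate 2 (orange); open symbols mark genes with no region in that list. wrt-2 leads in each list. In the pooled list 25 of 30 genes lie above the 50th percentile, and these are the genes with any pooled region, which 46.4% of all protein-coding genes have.

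In their permissive lists replicate 1 marked 27 of the 30 genes (90%, against 44.5% of all genes) and replicate 2 marked 26 (86.7%, against 50.4%). Across the 30 genes the strongest signals in replicate 1 and replicate 2 had a Spearman's rho of 0.82, and over all protein-coding genes it was 0.80, with genes that lack a region at 0 and genes of all lengths included. Of the 144 pooled summits at the 30 genes, 127 (88.2%, interval 81.8 to 93.0%) had a region within 200 bp in replicate 1 and 84 (58.3%, 49.8 to 66.5%) in replicate 2. Both replicates had one at 71 (49.3%, 40.9 to 57.8%). At all protein-coding genes it was 80.4% in replicate 1, 65.5% in replicate 2 and 51.0% in both. The replicates differed most in their promoter counts: 20 of the 30 genes had a promoter region in replicate 1 (66.7%, against 30.4% of all genes) and 12 in replicate 2 (40.0%, interval 22.7 to 59.4%, against 31.5%). In bodies it was 20 and 19 genes, against 22.2% and 25.5% of all, and at 3′ ends 18 and 15, against 29.2% and 33.7%. A promoter region in replicate 1 and none in replicate 2 was found at acn-1, lrp-1, mlt-11, nas-36, nas-37, nekl-3, noah-1, qua-1, wrt-1 and wrt-10, and the opposite at nekl-2 and wrt-5.

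**Figure D5:**
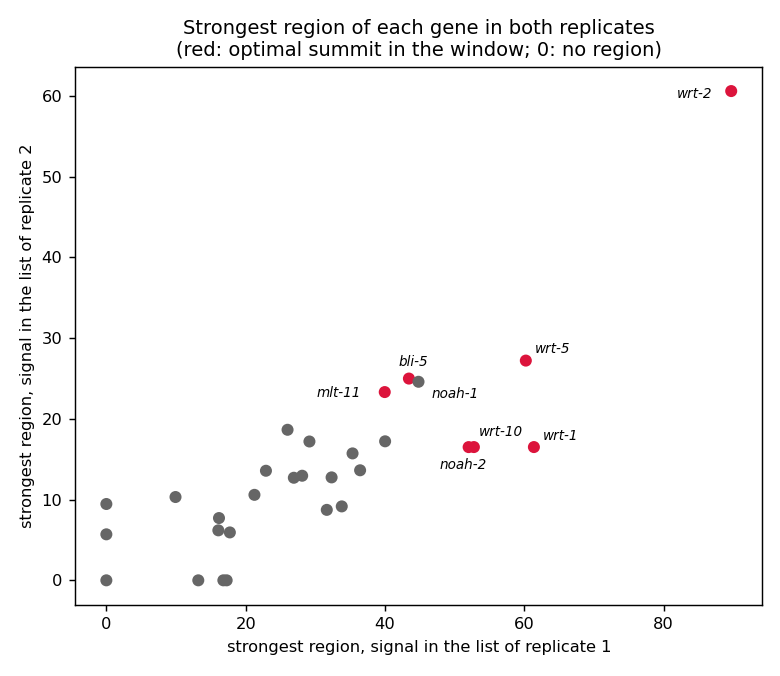
Signal of the strongest region in each gene's window in the list of replicate 1 (x axis) and of replicate 2 (y axis), 1 point per gene, red where an optimal summit lies in the window. wrt-2 stands alone at 89.7 and 60.6, and noah-2, wrt-1 and wrt-10 have high values in replicate 1 and about 16.5 in replicate 2.

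By the 3052 strongest regions of each replicate, with summits within 200 bp of each other, 3 of the 30 genes were marked by both, namely bli-5, wrt-2 and wrt-5 (10%, interval 2.11 to 26.5%, against 6.15% of all protein-coding genes). Each of these 3 summits lay at a 3′ end with another gene's end nearer to it. Without that pairing, 7 of the 30 genes had one of the strongest regions of replicate 1 (23.3%, against 9.96%) and 5 one of those of replicate 2 (16.7%, against 12.5%).

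Other genes of the moult gave a different picture by group. Regulators of moulting, among them transcription factors, timing genes and partners of the NEKL kinases, had an optimal summit at 7 of 16 genes (43.8%, against 10.9% of all protein-coding genes), led by pan-1 with a signal of 117.2 upstream of its 5′ end, myrf-1 with 94.8, also upstream, lin-29 with 84.6 near its 3′ end and lin-42 with 82.5 in its body. The other 3, named after their values were seen, were nhr-23, nhr-25 and kin-20. The PAN-1 protein is known as a partner of the membrane-bound transcription factor MYRF-1. The lin-29 summit was as near to the end of hmg-12, at 206 bp, as to its own. In bodies it was 5 of these 16 genes (31.3%, against 2.6% of all genes), and the median of the strongest pooled signal was 55.9. Longer genes have more body to catch a summit, and the lengths of the regulators were not compared with those of all genes. Other genes of the matrix, its proteases and its oxidases had an optimal summit at 5 of 23 (21.7%, against 10.9% of all genes), namely dpy-11, cpz-1, cpl-1, ptr-18 and lpr-3, with signals from 439.5 at dpy-11 to 61.0 at lpr-3. The lpr-3 summit lay 131 bp past its 3′ end and nearer to the 5′ end of lpr-6.

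Cuticle collagens, the bulk of the cuticle itself, had an optimal summit at 31 of 175 genes (17.7%, against 10.9% of all). It was 20 genes at the promoter (11.4%, against 5.96%), 26 at the 3′ end (14.9%, against 5.63%) and 1 in the body (0.571%, against 2.6%). The body starts over 500 bp from both ends, so a short gene has little or none. Lengths of the collagens were not compared with those of all genes, so nothing can be read from their body share. The strongest were at sqt-2 (256.6), dpy-13 (179.2), col-17 (167.4) and col-166 (166.96). The sqt-2 summit lay 181 bp past its 3′ end and much nearer to the 5′ end of enee-1. Of the collagens, 13.1% were marked in both replicates, against 6.15% of all genes, and the median of the strongest pooled signal was 14.4. Of the protein families outside the 30 genes, 3 of 48 other Hedgehog-related genes (6.25%), namely hog-1, grl-10 and grl-4, and 2 of 35 other astacin gene loci (5.71%), nas-4 and nas-30, had an optimal summit, against 10.9% of all protein-coding genes. A pooled region lay at 43.8% of these Hedgehog-related genes and at 14.3% of these astacin loci, against 46.4% of all protein-coding genes, so the Hedgehog-related share was near the background. None of these differences between lists was tested.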

How the data were processed

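Per the labels, AMA-1 ChIP-seq was made from 2 biological replicates of whole N2 L3 larvae. The authors deposited narrowPeak lists in builds ce10 and ce11. Per the readme in the deposited files, the permissive lists derive from the alignments of 1 replicate or of both pooled, with a control, and the optimal list derives from the permissive ones by the irreproducible discovery rate. No source used here names the aligner, the caller or the depth. The deposited signal per region (column 7) was used within each list, the deposited −log10 q values were not tested, and the summit was column 2 plus column 10. The ce11 lists were used; 0 regions reached past a WBcel235 chromosome end, and a start codon stood where annotated in 30 of 30 genes.

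With Python 3.11.15, pandas 2.3.3, numpy 2.4.6 and scipy 1.17.1, summits were assigned to gene zones (Ensembl release 115); the rule was tested on simulated data. Regions were matched to the strongest region of a replicate within 200 bp. Shares carry exact 95% intervals. Described in full were the genes with an optimal summit and the 6 others with the strongest pooled region; of other lists, those with an optimal summit or the 4 strongest. The genes and lists were chosen with earlier results of these data known. With 1 group there was no test. Alternatives were windows of 250 and 1000 bp, overlap of peaks, nearest ends, transcript ends, 1526 or 6104 regions, each replicate alone and other matching distances.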

Additional observations from a re-analysis of the deposited data

How the results depend on the processing

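Of 51 alternative values, 35 stayed within 1.5 times the count or within the spread of the replicates, and 16 moved. With the 1526 strongest optimal peaks, an optimal summit was left anywhere at 2 genes (against 6.07% of all genes). At promoters and in bodies it was left at 0 (against 3.08% and 1.34%), and at 3′ ends at 2 (against 3.15%). With the 6104 strongest pooled regions it was 11 anywhere (against 18.5% of all genes) and 3 at promoters (against 10.7%). These regions gave 6 in bodies (against 5.36%) and 8 at 3′ ends (against 9.74%). A window of 250 bp and the rule of the nearest end each left 2 genes at 3′ ends (against 3.73% and 3.44% of all genes). Leaving out 1 replicate gave 5 to 7 genes anywhere, 0 to 2 at promoters, 1 to 2 in bodies and 3 to 6 at 3′ ends. The median of the strongest pooled signal was 22.0 with promoters alone, and 12.9 to 28.6 with 1 replicate, on scales that differ between lists. Genes marked by both replicates numbered 1 with the 1526 strongest regions of each and 7 with the 6104 strongest. The density in bodies stayed between 7.08 and 9.38 per 10 kb with 1 replicate, and the setting without lrp-1 was chosen after the data were seen. By construction, a shorter list marks no more genes, nor does a narrower window at ends or anywhere. The body starts where the end zones stop, so a narrower window widens it. With 250 bp an optimal body summit was found at 3 genes (against 3.62% of all genes). For the replicates and the promoters alone the cause was not tested. Leaving out a replicate gives no count for genes marked by both. No paired analysis was possible because there was only 1 group. The unknown depth limits all counts, and regions called near the foot of a list are the least certain.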
